A study of Mus musculus with 18 samples.

Results

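This comparison concerns natural killer (NK) cells of the mouse liver that carry RARα403, a dominant-negative form of the retinoic acid receptor α gene product that lacks its end, set against control NK cells of the same organ. Its members are 6 of the 18 libraries of the series, chosen by their labels as liver NK cells: 3 control libraries and 3 RARα403 libraries, called control 1 to 3 and RARa403 1 to 3. Control mice had the genotype Ncr1-Cre, and the other mice Ncr1-Cre with Rosa26-RARα403, so both groups carried the Cre recombinase driven by Ncr1, the gene of the receptor NKp46. All mice were of the strain C57BL/6 and 8 weeks old, and the labels name no agent. Each library was made by SMART-seq, a method for small inputs that reads along whole transcripts, from 200 cells sorted as negative for CD3 and CD49a and positive for NK1.1, NKp46 and CD49b. The gate was the same for both genotypes, so its marker genes have little room to differ. Which animals the libraries came from is not in the labels, and p-values measure only the spread between these libraries, which may be technical. The series is about the need for retinoic acid receptors in the upkeep of type 1 innate lymphoid cells (ILC1s), tissue-resident relatives of NK cells, and the NK libraries carry the same genetic change in the circulating lineage.

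Retinoic acid, a metabolite of vitamin A that the liver stores in quantity, binds receptors of the RAR family, which sit on DNA with RXR partners and exchange corepressors for coactivators when the ligand is bound. A receptor that cannot make this exchange holds its targets in the repressed state and competes with the intact receptors. NK cells circulate through the liver sinusoids, kill target cells with perforin and granzymes, and gain CD11b, KLRG1 and related surface molecules as they mature under the T-box factors Eomes and T-bet.

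RARa403 1 stood apart from the other libraries before any comparison. Total counts ran from 5727907 to 9038767 over the 6 libraries, and 3 counts, the floor used here for a gene with no counts, came to 0.332 to 0.524 CPM (counts scaled to a common library size). RARa403 1, with 6052296 counts, was within that range of depth. Its mean correlation with the other NK libraries across genes was 0.741, against 0.912 to 0.917 for the others. Ribosomal RNA and related transcripts took 3.34% of its counts against at most 0.215% in the others, and its 50 most abundant genes took 21.0% against 12.3 to 13.5%. In RARa403 1, 311 (8.83%) of the 3522 genes that exceeded 50 CPM everywhere else had at most 3 counts. Each other library, measured in this way against its 5 companions, lacked 0. For those libraries RARa403 1 was among the companions, so the genes it lacked were left out and only 2158 to 2203 genes qualified. Among the missing transcripts were Bzw1, Actr2 and Npm1, which encode a translation regulator, a subunit of the actin-branching Arp2/3 complex and nucleophosmin, with 752, 574 and 426 CPM on average in the others and 0, 0 and 1 counts here. Klrg1 and Cst7, the gene of cystatin F, had 0 counts there too. Values are therefore given with all 6 libraries and with the 5 left without RARa403 1. A level is a log2 CPM (prior count 2), on the scale of the 5 libraries, except that RARa403 1 is on the scale of the 6. Where RARa403 1 is said to lie above, below or within the controls, all are on the scale of the 6.

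**Figure D1:**
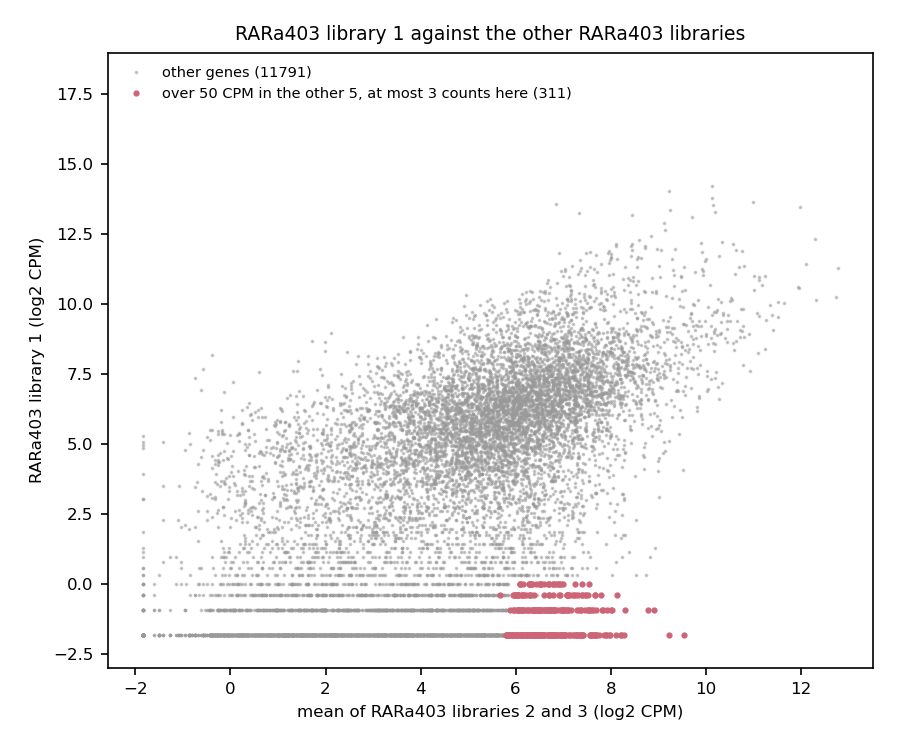
Levels of 12102 genes in RARa403 1 (vertical axis, log2 CPM) against their mean in RARa403 2 and 3 (horizontal axis, log2 CPM). The 311 marked genes exceeded 50 CPM in each of the other 5 libraries and had at most 3 counts in RARa403 1, which places them along the bottom of the plot among genes of high level in the other libraries.

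The sorted cells carried the defining transcripts of NK cells. Counts of Ncr1 ran from 17310 to 22381 in controls and were 4439, 28158 and 19286 in RARa403 1, 2 and 3, and Eomes had 3248 to 4974 against 1819, 4726 and 3857. Several defining markers of other cells were at or near 0. The summed level of 12 neutrophil genes was at most 1.78 CPM, with S100a8, S100a9 and Ly6g at 0 counts in all 6 libraries, and that of 15 hepatocyte genes lay between 2.65 and 11.6 CPM. For macrophages and dendritic cells it was 201 to 334 CPM in controls and 86.9 to 236 in RARa403 libraries. Of these 18 genes 5 had 0 counts in all 6 libraries, among them Adgre1, Csf1r and C1qa. Nearly all of the sum came from Itgax, with 520 to 2098 counts over the 6 libraries, and Cd68 had 0 to 65. For B cells the summed level was 237 to 246 CPM in controls and 44.0, 200 and 381 in RARa403 1, 2 and 3. Nearly all of this came from Ighm outside RARa403 1. For T cells the summed level was 985 to 1043 CPM in controls and 1314, 921 and 1254 in RARa403 1, 2 and 3. Of these genes Cd3e had at most 3 counts, but the T cell receptor constant genes Trdc and Trac had 675 to 1473 and 22 to 219 over the 6 libraries. Trdc and Trac gave a small part of these sums. Of the 16 T cell genes 5 exceeded 50 CPM in each of the 5 libraries without RARa403 1. Cxcr6, an ILC1 marker, had 88 counts in RARa403 3 and at most 2 in the other 5. In bulk libraries fewer cells of a type and less RNA per cell cannot be told apart.

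The locus of the insert was examined first. Gt(ROSA)26Sor (ENSMUSG00000086429, mm10 chromosome 6, 113067428 to 113077333), the noncoding transcript of Rosa26, had 536, 581 and 192 counts in control 1, 2 and 3 and 0, 10 and 0 counts in RARa403 1, 2 and 3. The groups did not overlap in counts, and RARa403 1 is the library with missing transcripts. In the liver ILC1s of the series the transcript had 104 to 903 counts in controls and 1 and 0 in RARa403 libraries 2 and 3. Liver ILC1 RARa403 library 1 lay within the range of those controls. Spleen ILC1s had 152 to 1260 counts in controls and 365, 1 and 3 in RARa403 libraries 1, 2 and 3. The cause was not tested. In the 5 NK libraries the log2 fold change was −6.56 (SE 0.94, adjusted p = 0.377). The transcript is annotated as antisense and overlaps Thumpd3 (113046225 to 113068273), whose own log2 fold change was −0.58 (SE 0.27). The strand setting of the counting is not given, so reads from their overlap cannot be told apart. Rara, the gene whose truncated form was inserted, had 165, 314 and 147 counts in controls and 202 and 203 in RARa403 2 and 3 (log2 fold change −0.03, SE 0.39, adjusted p = 0.999), but 1764 in RARa403 1. The Rara counts of RARa403 2 and 3 thus lay within the range of the controls, and the treatment of reads from the insert in the counting is not given. Rarg, the receptor γ gene, was level between the genotypes (−0.07, SE 0.43), and Rarb, the receptor β gene, had at most 3 counts in each library and was not tested.

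Across all expressed genes edgeR's quasi-likelihood test called none in either fit. With 5 libraries it called 0 of 12102 genes (0%) at an adjusted p of 0.05. There were 494 genes at an unadjusted p under 0.05, 222 higher (1.83% of genes tested) and 272 lower (2.25%) in RARα403 cells, where 605.1 would follow from p-values spread evenly. With 6 libraries it called 0 of 11332 (0%), with 200 at an unadjusted p under 0.05, 157 higher (1.39%) and 43 lower (0.379%), against 566.6. DESeq2 called 45 genes with 5 libraries, 14 higher (0.118%) and 31 lower (0.261%), and 15 with 6, 8 higher (0.0735%) and 7 lower (0.0643%), while limma-voom with quality weights called 0 in both. In data simulated from these libraries, edgeR found 49% of genes given a 4-fold change with 5 libraries and 0% with 6, and for a 16-fold change the shares were 74% and 8%. In the same simulation DESeq2 made 45 false calls among 187 with 5 libraries and 77 among 170 with 6. The median log2 fold change over all genes tested was 0.01 with 5 libraries and −0.05 with 6. Differences below are therefore values. Among the named genes DESeq2 called Gt(ROSA)26Sor, Emilin2, Khdc1b, Zfp189, Zfp442 and Kcnj8 lower and Cap1, Tsc22d1, Smarcc1, Itm2a, Nek2, Exo1 and Pld4 higher with 5 libraries, and further calls are given with their gene lists. With 6 libraries it called Gt(ROSA)26Sor, Khdc1b and Zfp442 lower and Nek2, Pld4, Smarcc1 and Dhx35 higher among them.

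Among the gene lists with at least 5 genes tested, the lowest median was that of the GIMAP GTPases, small GTP-binding proteins of lymphocytes that sit on intracellular membranes and bear on lymphocyte survival. Their 8 genes cluster on chromosome 6, and all 8 were tested. In each, both RARα403 libraries of the 5-library fit lay below the 3 control libraries, where 9.2% of all genes tested did so. RARa403 1 was lower than the controls in each of the 8 as well, so that with 6 libraries again 8 of 8 lay below, where 5.56% of all genes did, and 4.05% lay above the controls. This held for 7 of 8 with 6 libraries when another scaling (RLE) was used, and it held for 8 of 8 with each library left out in turn. The family's median log2 fold change was −0.88 with 5 libraries and −1.13 with 6. Their summed level was 4333, 5100 and 5053 CPM in control 1, 2 and 3 and 688, 2535 and 2603 CPM in RARa403 1, 2 and 3.

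Among single members, Gimap4 (ENSMUSG00000054435, chromosome 6, 48684549 to 48692060) stood at 10.61, 10.95 and 10.68 log2 CPM in the controls and at 7.01, 9.79 and 9.57 in RARa403 1, 2 and 3. The lowest control library exceeded the highest RARα403 library by most of a log2 unit. Its log2 fold change with 5 libraries was −1.07 (SE 0.16, adjusted p = 0.461). Gimap6 (ENSMUSG00000047867, chromosome 6, 48701582 to 48708225) followed with 9.88, 9.82 and 9.98 in controls and 7.61, 8.70 and 9.13 in RARα403 libraries (−0.97, SE 0.18, adjusted p = 0.723). The genotypes again did not overlap, and the control libraries differed little from each other. Gimap3 had the largest fitted difference of the family with 5 libraries, −1.15 (SE 0.33, adjusted p = 0.999), and its controls spread more widely, from 8.67 to 9.81. Gimap8 stood at 8.11, 7.81 and 8.16 in controls and 7.03, 7.24 and 7.11 in RARα403 libraries (−0.86, SE 0.20). Gimap7 (−0.91), Gimap9 (−0.66) and Gimap1 (−0.61) also had unadjusted p-values under 0.05, and Gimap5 did not (−0.33, SE 0.22). Gimap5 was the member whose RARα403 values came nearest to the controls, with 7.03 and 7.47 against 7.49 to 7.72. DESeq2 called Gimap3, Gimap4, Gimap6 and Gimap8, 4 of the 31 genes (0.261% of those tested) that it called lower.

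**Figure D2:**
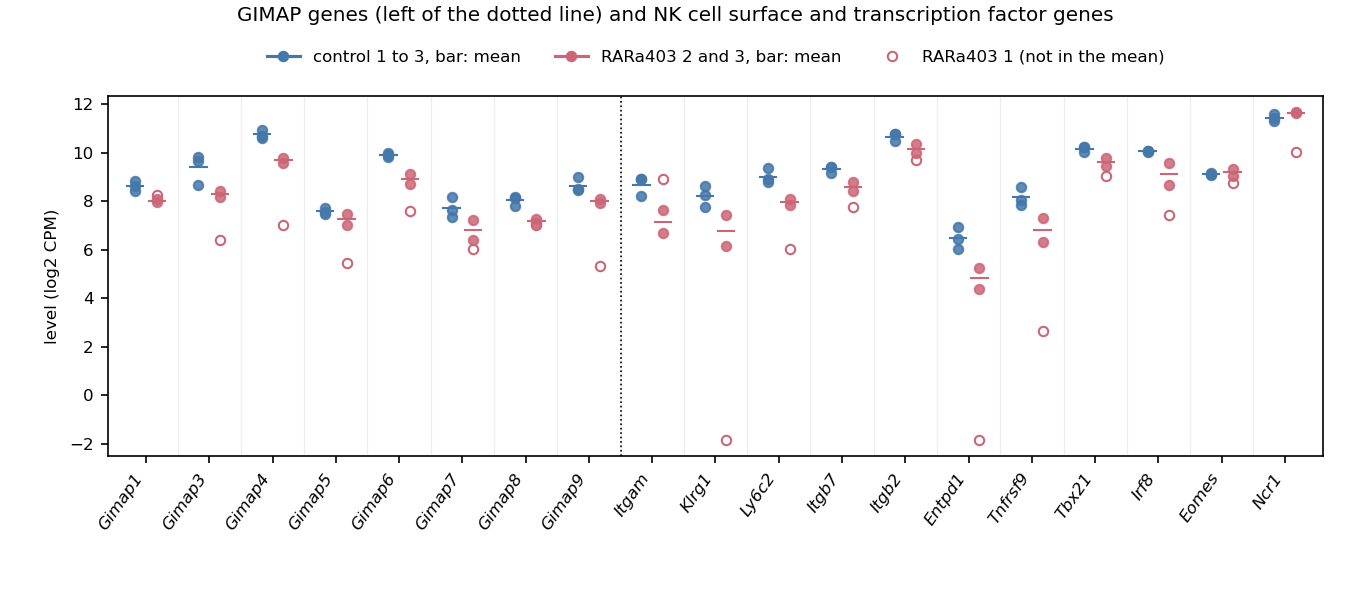
Levels (log2 CPM) of the 8 GIMAP genes and of 11 NK cell surface and transcription factor genes in each library. Blue points are control 1 to 3 and filled red points RARa403 2 and 3, with a bar at each mean, and open points are RARa403 1. In each GIMAP gene the red points lie below the blue ones, while Eomes overlaps between genotypes and Ncr1 is slightly higher in RARa403 2 and 3.

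The promoters of this family were read for the half-site that RAR and RXR recognise, because the inserted receptor keeps its DNA-binding part. The motif was searched as AGGTCA or as AGTTCA, and with a first G as GGGTCA or as GGTTCA, on both strands, in the 250 bases before the start of each gene in the RefSeq annotation of mm10. Such a half-site was present in 1 of 9 promoters of the 8 GIMAP genes (11.11%), against 33.1% of 11036 promoters of genes tested and 38.64% of 32851 promoters in all. Only the promoter of Gimap9 held any, 2 in all. Emilin2, the named gene of smallest p, had 1 in the farther upstream of its promoters and 0 in the other. Such a match is a description of the letters and not a site. The promoters of the Gimap members of smallest p and of Gimap9 are given 5′ to 3′ on the strand of the gene, with half-sites in capitals. They cover chr6:48684328-48684577 (plus strand), chr6:48708245-48708494 (minus strand) and chr6:48675885-48676134 (plus strand) of mm10.
Gimap4: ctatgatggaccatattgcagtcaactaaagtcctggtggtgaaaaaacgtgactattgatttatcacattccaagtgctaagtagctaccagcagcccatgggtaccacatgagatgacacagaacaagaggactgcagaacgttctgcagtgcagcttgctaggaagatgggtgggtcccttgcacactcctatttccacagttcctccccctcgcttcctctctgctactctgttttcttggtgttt
Gimap6: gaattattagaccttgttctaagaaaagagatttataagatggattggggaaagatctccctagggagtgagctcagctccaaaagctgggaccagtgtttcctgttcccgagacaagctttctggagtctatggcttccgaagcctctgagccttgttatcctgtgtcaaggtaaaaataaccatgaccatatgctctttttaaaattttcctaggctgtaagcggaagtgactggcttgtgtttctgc
Gimap9: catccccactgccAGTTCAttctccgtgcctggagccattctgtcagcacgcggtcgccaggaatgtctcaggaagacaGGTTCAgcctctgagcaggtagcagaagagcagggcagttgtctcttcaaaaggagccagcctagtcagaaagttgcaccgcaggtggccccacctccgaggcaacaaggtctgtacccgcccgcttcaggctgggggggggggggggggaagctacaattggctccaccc

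Beyond this family, the named genes of smallest p with lower values were of several kinds. Emilin2 (ENSMUSG00000024053, chromosome 17, 71252172 to 71311978), which encodes an extracellular matrix glycoprotein, stood at 6.46, 7.06 and 7.22 log2 CPM in controls and at 3.80 and 2.91 in RARa403 2 and 3, with 0 counts in RARa403 1. Each RARα403 library was thus more than 2 log2 units below each control. The log2 fold change was −3.55 (SE 0.41, adjusted p = 0.176) with 5 libraries and −4.14 (SE 1.36) with 6. Khdc1b, a KH-domain protein gene with close copies beside it, had 481, 50 and 161 counts in controls and 0 in the 3 RARα403 libraries, at least 85.7-fold lower with 5 libraries when 3 counts are set for each library at 0. Zfp189, a zinc finger gene, had 26, 113 and 122 counts in controls and 7, 0 and 0 in RARα403 cells, at least 29.9-fold lower with 5 libraries. Zfp442, also a zinc finger gene, had 145, 34 and 48 counts against 0 in the 3 RARα403 libraries. Such bounds cover counting error only. Kcnj8, a potassium channel subunit, stood at 6.22 to 7.52 in controls and at 3.79, 4.21 and 5.50 in RARa403 1, 2 and 3 (−2.06, SE 0.51, adjusted p = 0.999). Kcnip3, the gene of the calcium-binding repressor DREAM, stood at 6.21 to 6.86 against 5.34, 5.48 and 5.60 (−1.09, SE 0.29).

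Cap1 and Tsc22d1 were the named genes of smallest p with higher values. Cap1 (ENSMUSG00000028656, chromosome 4, 122859047 to 122886056), which recycles actin monomers, stood at 7.96, 8.07 and 7.93 in controls and at 9.22 and 9.08 in RARa403 2 and 3 (log2 fold change 1.16, SE 0.16, adjusted p = 0.362). RARa403 1 went the other way, at 7.40, so the genotypes overlap over 6 libraries. Tsc22d1 (ENSMUSG00000022010, chromosome 14, 76414961 to 76507765), a leucine zipper regulator induced by TGF-β, stood at 6.19, 5.29 and 5.86 in controls and at 6.84, 7.71 and 7.51 in RARa403 1, 2 and 3 (1.79, SE 0.29, adjusted p = 0.598). All 3 RARα403 libraries exceeded the controls here, as they did for Smarcc1, a subunit of the BAF chromatin remodelling complex, with 5.41 to 5.81 against 6.88, 6.89 and 6.87 (1.20, SE 0.24). Dhx35, an RNA helicase gene, stood at 2.36 to 3.07 in controls and at 5.36, 4.62 and 4.70 in the 3 RARα403 libraries. Itm2a, a membrane protein gene on the X chromosome, stood at 6.85 to 7.13 against 8.46 and 7.98 (1.21, SE 0.22), with 0 counts in RARa403 1. Xist, which marks female cells, was high in control 3 and RARa403 2 (6.73 and 6.98 log2 CPM) and at most 1.57 in the other 3 of those 5 libraries, so 1 library of each genotype was high.

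The other genes of smallest p with higher values had few or no counts in the controls. Nek2, a mitotic kinase of the centrosome, had 0 counts in the 3 controls and 138, 385 and 54 in RARa403 1, 2 and 3, at least 58.7-fold higher with 5 libraries. Exo1, a repair exonuclease, had 0, 1 and 0 counts against 8, 153 and 49. Pld4, an endolysosomal nuclease, and Zfp691, a zinc finger gene, had 0 counts in controls and 261, 51 and 47 and 280, 25 and 27 in RARα403 libraries. Gm13394, a processed pseudogene chosen after its values were seen, had the smallest p of the fit, with 3.10, 2.41 and 2.44 log2 CPM in controls and 6.82 and 6.25 in RARa403 2 and 3 (3.94, SE 0.39, adjusted p = 0.103). RARa403 1 was near the controls for it, at 3.77.

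**Figure D3:**
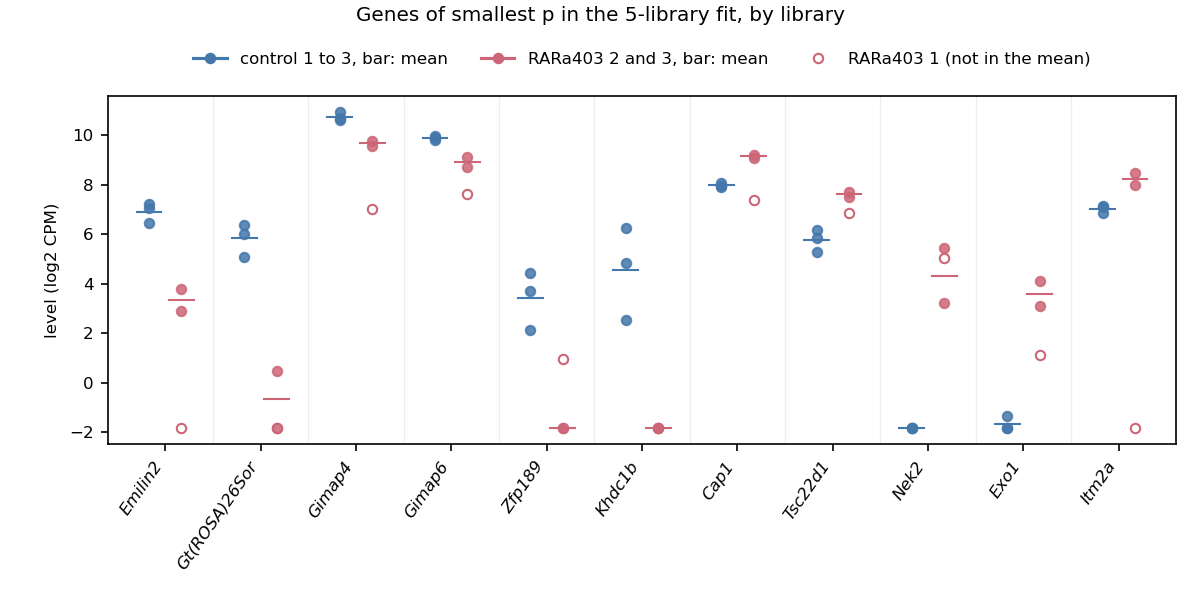
Levels (log2 CPM) of the 6 named genes of smallest p with lower values and 5 of those with higher values in the 5-library fit. Blue points are control 1 to 3 and filled red points RARa403 2 and 3, with a bar at each mean, and open points are RARa403 1, which lies below the controls for Cap1 and Itm2a. Points near −1.8 have 0 counts, as the 3 controls have for Nek2.

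Surface molecules by which NK cells adhere, travel and are staged had lower values in several cases. Of 25 tested genes of a list of chemokine receptors, integrins and egress receptors, 0 were called, 7 lay below the controls in both RARα403 libraries and 2 above (28% and 8% of the list, where 9.2% and 10.4% of all genes tested did). The median was −0.17. Among the 7 were Itgam, Ly6c2, Itgb7, Itgb2, Itgal and S1pr4. Itgam (chromosome 7, 128062640 to 128118491), the gene of the integrin αM chain CD11b, which marks mature NK cells, stood at 8.92, 8.21 and 8.92 in controls and 7.62 and 6.69 in RARa403 2 and 3 (−1.49, SE 0.34, adjusted p = 0.999). RARa403 1 was at 8.90, above the controls, which were at 8.11 to 8.84 on the scale of the 6, and with 6 libraries the log2 fold change was −0.64 (SE 0.62). Ly6c2, a surface antigen of mature and activated lymphocytes with a close copy in Ly6c1, stood at 8.90, 8.77 and 9.36 in controls and at 6.04, 8.10 and 7.82 in RARa403 1, 2 and 3 (−1.07, SE 0.23). Here the 3 RARα403 libraries all lay below the controls. Itgb2, the β2 chain that pairs with CD11b, was at 10.46 to 10.76 against 9.71, 10.35 and 9.99 (−0.49, SE 0.17). For Itgal and S1pr4 RARa403 1 was above the controls instead, Itgal with 49894 counts against 8514 to 11538. DESeq2 called Itgam, Itgb7 and Ly6c2 lower. Cd44, the hyaluronan receptor, went the other way, at 7.83 to 8.04 in controls and 8.29 and 8.37 in RARa403 2 and 3 (0.41, SE 0.17).

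Among the inhibitory and activating lectin receptors, Klrg1 (chromosome 6, 122270596 to 122282882), an inhibitory receptor of terminally mature NK cells, stood at 8.61, 7.75 and 8.24 in controls and at 7.42 and 6.13 in RARa403 2 and 3 (−1.32, SE 0.41, adjusted p = 0.999). The 2 RARα403 libraries were both below the controls and differed from each other by more than the controls did. Klrc3, an NKG2 family gene with close copies, was at 5.76 to 6.53 in controls and 5.26 and 5.61 in RARa403 2 and 3 (−0.75, SE 0.32), with 7.25 in RARa403 1. Of 22 tested genes of the Ly49, NKG2 and NKR-P1 receptors and Klrg1, these 2 lay below the controls (9.1%, where 9.2% of all genes did) and 0 above, with a median of −0.07, and the counting could have split reads between copies. Entpd1, the ectonucleotidase CD39, stood at 6.42, 6.02 and 6.95 in controls and at 5.23 and 4.40 in RARa403 2 and 3, with 0 counts in RARa403 1 (−1.64, SE 0.40). Tnfrsf9, the costimulatory receptor 4-1BB, stood at 8.60, 8.06 and 7.83 against 2.64, 7.29 and 6.32 in RARa403 1, 2 and 3 (−1.32, SE 0.35). DESeq2 called both lower. In their list of checkpoint receptors 3 of 11 tested genes lay below the controls and 1 above (27.3% and 9.1%, where 9.2% and 10.4% of all genes did). The median was −0.09, and it ran from −0.70 without RARa403 2 to 0.07 without control 3.

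Among transcription factors of NK cells, Eomes stood at 9.07 to 9.17 in controls and at 8.76, 9.05 and 9.34 in RARa403 1, 2 and 3 (0.08, SE 0.16). Tbx21, the gene of T-bet, stood at 10.22, 10.01 and 10.21 against 9.05, 9.77 and 9.46 (−0.53, SE 0.16, adjusted p = 0.999), with no overlap between the genotypes in either fit. Irf8, a factor that NK cells use in antiviral expansion, was nearly level among the controls, at 10.03 to 10.07, and lower in RARα403 libraries, at 7.45, 9.59 and 8.66 (−0.85, SE 0.26, adjusted p = 0.999). Of 23 tested maturation factors 5 lay below the controls and 2 above (21.7% and 8.7%, where 9.2% and 10.4% of all genes did), and 0 were called. The median was −0.02, and it ran from −0.14 without control 1 to 0.06 without control 3. Foxo1 and Zbtb16, which is the gene of PLZF, were the 2 above, by 0.41 (SE 0.22) and 1.05 (SE 0.62). Among 22 identity genes, Itgam and Tbx21 lay below the controls and Ncr1 above (0.21, SE 0.13), and the median was −0.07. Itga2, the gene of the gate marker CD49b, was at 6.45 to 7.05 in controls and 7.01 and 7.09 in RARa403 2 and 3 (0.21, SE 0.25).

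Killing machinery was measured in 22 granule and effector genes, of which 3 lay below the controls (13.6%, where 9.2% of all genes did), 0 above and 0 were called. The median was −0.06, and it ran from −0.27 without RARa403 2 to 0.02 without RARa403 3. Perforin, from Prf1, stood at 10.67 to 11.06 log2 CPM in controls and 10.92 and 10.64 in RARa403 2 and 3 (−0.07, SE 0.16). Granzyme B, from Gzmb, stood at 9.81 to 10.66 against 10.39 and 9.29 (−0.40, SE 0.35). In RARa403 1 both were lower, at 7.82 and 8.49, and the list's median with 6 libraries was −0.50. The 3 below the controls were Fasl, the death ligand (−0.64, SE 0.22), Cst7, which restrains granule proteases (−0.63, SE 0.24), and Srgn, the granule proteoglycan (−0.32, SE 0.18). Proximal signalling genes lay below in 4 of 25 (16%, against 9.2% of all genes), with Syk and Cd247, the kinase and the ζ chain downstream of activating receptors, at −0.49 (SE 0.19) and −0.43 (SE 0.19). Of 22 cytokine receptors 4 lay below and 1 above (18.2% and 4.5%, against 9.2% and 10.4% of all genes), and the smallest p were those of Il12rb2 and Il10rb, subunits of the receptors for interleukin-12 and interleukin-10 (−0.42, SE 0.16 and −0.44, SE 0.19). For Syk and Il12rb2 RARa403 1 was above the controls instead. Bcl2, the survival factor, stood at 8.62 to 9.16 in controls and 9.39 and 9.29 in RARa403 2 and 3 (0.43, SE 0.19). RARa403 1 was below the controls, at 7.88, and the log2 fold change with 6 libraries was 0.10 (SE 0.45).

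Genes of the retinoid pathway itself were few in these cells. Of 21 genes of retinoid metabolism and classical retinoic acid targets 8 were tested, and Cyp26b1, Aldh1a2, Crabp1, Crabp2 and Stra8 had 0 counts in all 6 libraries. Of the 8, 3 lay below the controls (37.5%, where 9.2% of all genes did), 0 above and 0 were called. The median was −0.51 with 5 libraries, −0.93 without RARa403 2 and −0.74 with 6 libraries. The 3 were Itgb7, Dhrs3 and Asb2. Itgb7, the β7 integrin chain of gut homing, stood at 9.40, 9.40 and 9.15 in controls and at 7.75, 8.80 and 8.40 in RARa403 1, 2 and 3 (−0.70, SE 0.19, adjusted p = 0.999). Dhrs3, which turns retinal back into retinol and is itself induced by retinoic acid, stood at 5.88, 6.57 and 5.70 against 5.53, 5.29 and 5.20 (−0.86, SE 0.34). In both genes the 3 RARα403 libraries lay below the controls. Asb2, a ubiquitin ligase subunit, was at 3.08 to 3.86 against 2.71 and 0.70 (−1.47, SE 0.90). The receptors, RXR partners, corepressors and coactivators gave a median of −0.07 over 14 tested genes with 5 libraries. Of these 0 lay below the controls and 1 above, the corepressor subunit gene Tbl1xr1 (0.27, SE 0.23). The coactivator gene Ncoa1 had the smallest p of that list (−1.19, SE 0.64), and its genotypes overlapped. With 6 libraries the median of the list was 0.50. Rara, with its high count in RARa403 1, is a member.

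Cell cycle genes had higher values in RARα403 libraries, with wide spread. Of 36 tested, 33 had a fold change above 0, and the median was 0.88 with 5 libraries and 0.73 with 6. However, 5 lay above the 3 controls and 1 below (13.9% and 2.8%, where 10.4% and 9.2% of all genes did), and 0 were called. Mki67, the proliferation marker, stood at 6.01, 3.13 and 1.87 in control 1, 2 and 3 and at 7.92, 7.21 and 5.12 in RARa403 1, 2 and 3, so that control 1 was above RARa403 3. RARa403 2 was the highest library for Top2a, a topoisomerase of dividing cells, at 8.18 against 5.66 in RARa403 3 and 2.95 to 7.05 in controls. Without RARa403 2 the median of the list was 0.15, without control 3 it was 0.54, and without control 1 it was 1.07. The members of smallest p were Rrm1, a subunit of ribonucleotide reductase, at 6.62 to 6.95 in controls and 7.83 and 7.48 in RARa403 2 and 3 (0.89, SE 0.22, adjusted p = 0.999), and Cdk2, the S-phase kinase, at 4.53 to 5.21 against 6.38 and 5.82 (1.25, SE 0.34). RARa403 1 was at 4.81 for Rrm1, below the controls, and at 5.13 for Cdk2. Cdkn1b, the cell cycle inhibitor p27, was among the 5 as well (1.01, SE 0.37). Without a filter on low counts edgeR called 8 members higher: Aurkb, Birc5, Ccna2, Cdk1, Mki67, Rrm2, Top2a and Ube2c. That fit called 83 genes in all, and its prior degrees of freedom were infinite, which gives each gene the spread of the trend.

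**Figure D4:**
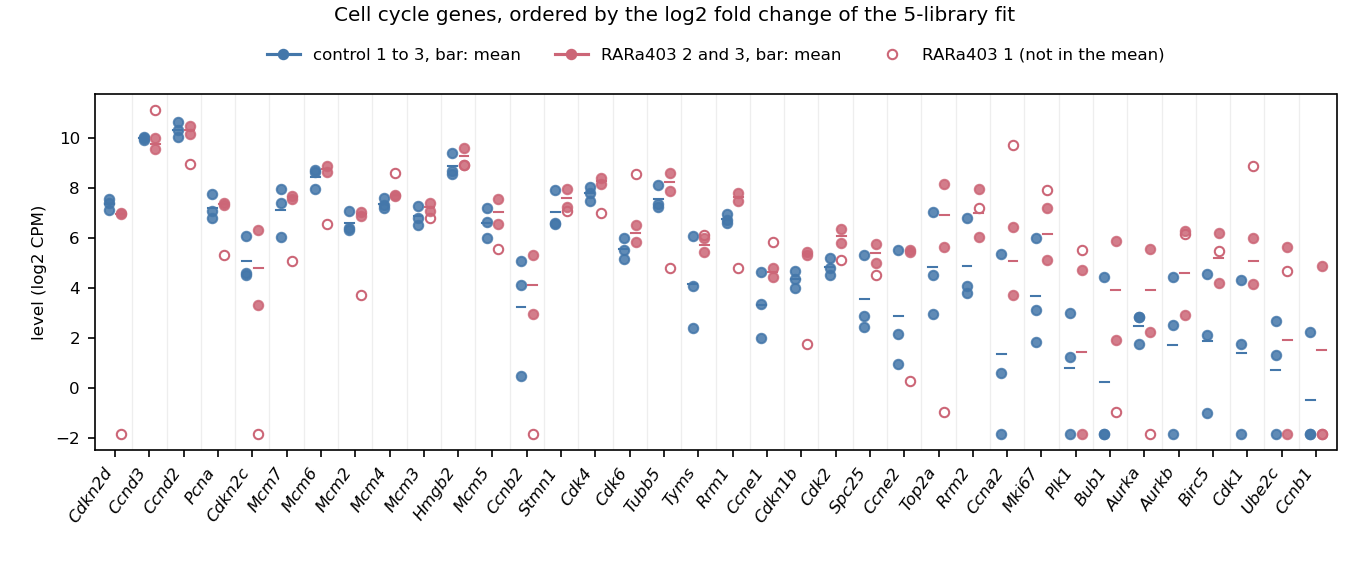
Levels (log2 CPM) of 36 cell cycle genes in each library, ordered from left to right by the log2 fold change of the 5-library fit. Blue points are control 1 to 3 and filled red points RARa403 2 and 3, with a bar at each mean, and open points are RARa403 1. In most genes the highest control point reaches into the range of the red points.

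Interferon response genes had higher values in part of the list. Of 26 interferon genes 6 lay above the controls and 1 below (23.1% and 3.8%, where 10.4% and 9.2% of all genes did), with a median of 0.33. Without RARa403 3 the median was −0.14, and without RARa403 2 it was 0.52. Ifit1, an interferon-induced sensor of foreign RNA, had 0 counts in the controls and in RARa403 1 but 33 and 389 in RARa403 2 and 3, at least 79.4-fold higher with 5 libraries. Ifit2 of the same family stood at 4.31 to 5.31 in controls and 6.54, 5.49 and 6.19 in RARα403 libraries (1.02, SE 0.40). Mx1, an antiviral GTPase, went the other way, with 72, 104 and 134 counts against 13, 1 and 21 (−3.12, SE 1.24). Of 18 tested ILC1 and residency genes 3 lay above the controls, Gpr183, Socs2 and Cd160, and 0 below (16.7% above, where 10.4% of all genes were). The median was 0.19, and its sign turned without RARa403 3 (−0.22) or control 1 (−0.05), while it was 0.60 without control 2. Gpr183, an oxysterol receptor that guides lymphocytes, had 47, 32 and 11 counts in controls and 50, 110 and 176 in RARα403 libraries (2.28, SE 0.77). Il7r, the interleukin-7 receptor by which the ILC1s were sorted, ranged as widely among the controls as between genotypes, with 185 to 642 counts in controls and 855, 84 and 864 in RARa403 1, 2 and 3. RARa403 3, the library with Cxcr6 counts, was highest of the 6 in the summed level of the ILC1 list, at 1175 CPM against 601 to 1065 in controls. The part of ILC1 transcripts in the other results was not tested.

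The Notch pathway had 6 of 18 tested genes below the controls and 1 above (33.3% and 5.6%, where 9.2% and 10.4% of all genes did) with 5 libraries. The median was −0.23, with −0.06 without RARa403 2 and −0.39 without control 1. Hes1, the classical Notch target, had 124, 88 and 174 counts in controls and 5, 62 and 15 in RARa403 1, 2 and 3 (−2.07, SE 0.76). The receptors Notch1 and Notch2 lay below the controls in RARa403 2 and 3 (−0.43, SE 0.33 and −0.94, SE 0.35). In RARa403 1 both were above the controls, Notch2 with 5439 counts against 279 to 597, and the median with 6 libraries was 0.01. Nr4a3, an orphan receptor induced by receptor signalling, stood at 5.52, 5.47 and 5.04 in controls and 3.68 and 2.11 in RARa403 2 and 3 (−2.29, SE 0.56, adjusted p = 0.999), and DESeq2 called it lower. RARa403 1 stood at 7.87 for this gene, and the log2 fold change of the 6 libraries was 1.12 (SE 1.36). Of the housekeeping lists 0 genes were called. With 5 libraries the medians were 0.10 for 40 ribosomal protein genes, 0.07 for 32 nuclear genes of oxidative phosphorylation, 0.09 for 21 genes of glycolysis and hypoxia and 0.21 for 19 of cholesterol and fatty acid synthesis. With 6 libraries the mitochondrially encoded genes had a median of −0.40, and they took 0.238% of the counts of RARa403 1 against 0.339 to 0.622% in the others.

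**Figure D5:**
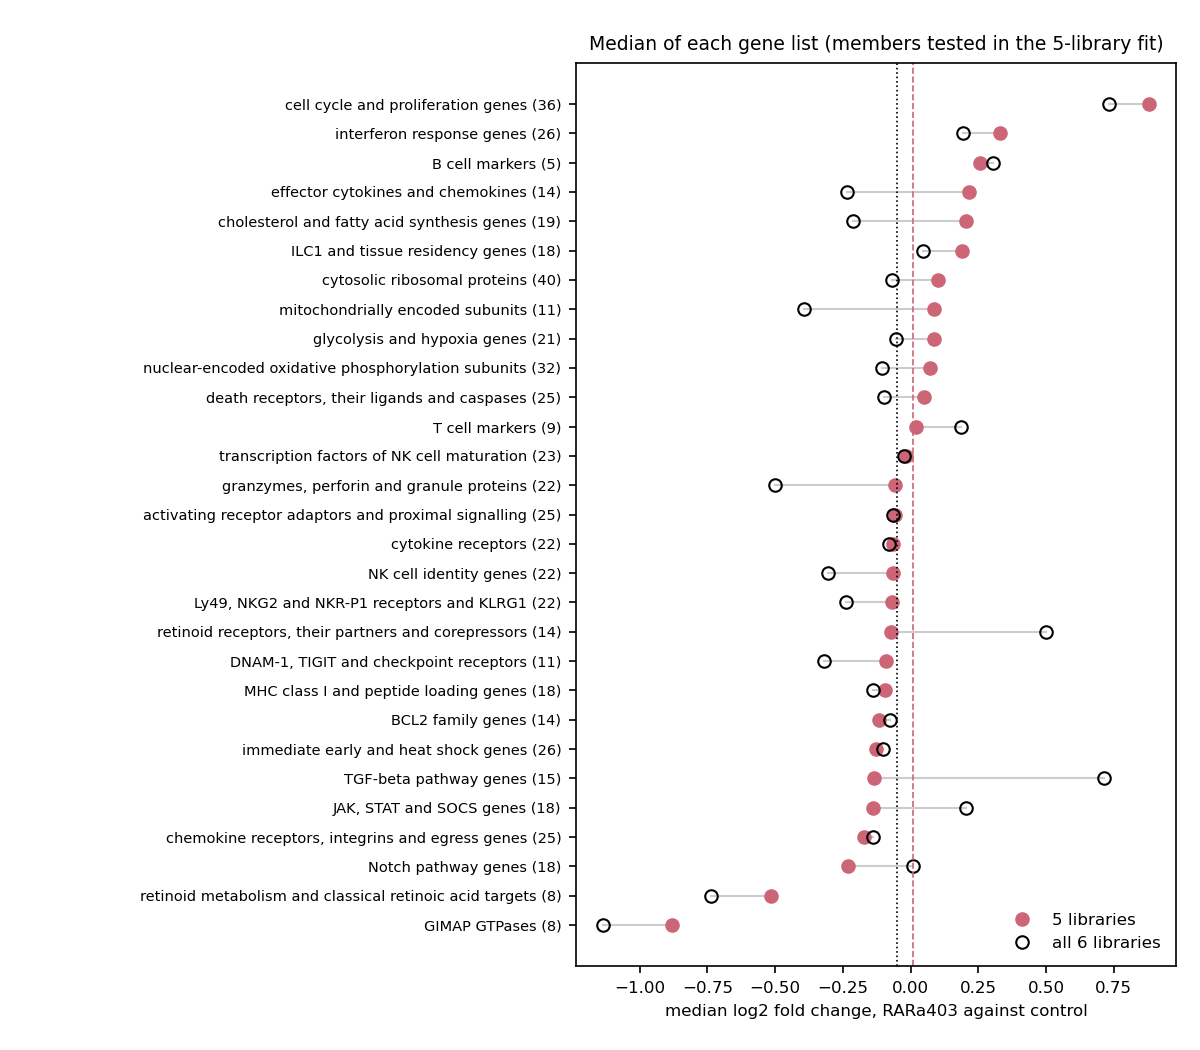
Median log2 fold change, RARα403 against control, of each gene list with at least 5 genes tested in the 5-library fit, whose number is in brackets. Filled points are 5 libraries and open points all 6. The dashed red and dotted black lines mark the median of all genes in the fits with 5 and 6 libraries. GIMAP genes lie lowest in both fits, at −0.88 and −1.13, and cell cycle genes highest in both, at 0.88 and 0.73.

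The RARα403 difference in NK cells was then set against that in liver ILC1s, 6 further libraries of the series from the same strain, age and genotypes, sorted as positive for CD49a and IL-7R and low for CD49b. The difference of the effects, fitted over 17 libraries without RARa403 1, was called for 0 of 16565 genes (0%), with 730 (4.41%) at an unadjusted p under 0.05 where 828.2 would follow from even p-values. DESeq2 called 24. Plcg1, the phospholipase Cγ1 downstream of antigen receptors, had the smallest p (adjusted p = 0.0692). It had 17, 43 and 21 counts in control NK cells and 1, 0 and 0 in RARα403 NK cells, at least 8.76-fold lower with 5 libraries, while liver ILC1s had 462, 146 and 264 counts in controls and 227, 557 and 457 in RARα403 cells. The genotypes did not overlap in NK cells and did in ILC1s. Without liver ILC1 RARa403 library 1 the difference for Plcg1 passed the threshold, as the single gene called. That library is the liver ILC1 RARa403 library whose Gt(ROSA)26Sor count lay within its controls. H2afx, the gene of the histone variant H2AX of DNA damage signalling, stood at 5.47 to 6.09 in control NK cells. RARa403 2 and 3 were at 7.46 and 6.55, with RARa403 1 within the controls at 5.66. The log2 fold change in NK cells was 1.27 (SE 0.33) with 5 libraries, and the effect in NK cells exceeded that in ILC1s by 2.68 (SE 0.64, adjusted p = 1). Liver ILC1s went the other way, with 1245, 380 and 533 H2afx counts in controls and 313, 291 and 385 in RARα403 cells. Dll1, a Notch ligand gene, had 0, 0 and 1 counts in control NK cells and 0, 80 and 18 in RARa403 1, 2 and 3. Its liver ILC1 counts were 150, 45 and 121 in controls and 30, 122 and 17 in RARα403 cells.

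For the GIMAP genes the difference between the cell types lay between −0.80 and 0.26, with a median of −0.15, and 1 of 8 had an unadjusted p under 0.05 (Gimap3, adjusted p = 1). Gimap4 differed by −0.19 (SE 0.31). The lower GIMAP values were thus not shown to differ between NK cells and ILC1s. Itgb7 and Ly6c2 had the smallest p of the list of chemokine receptors and integrins, with NK minus ILC1 differences of −0.80 (SE 0.21) and −3.08 (SE 0.93) on the log2 scale, and an adjusted p of 1 for both. Within NK cells the log2 fold changes with 5 libraries were −0.70 and −1.07. Most of the Ly6c2 difference thus came from higher values in RARα403 ILC1s. Liver ILC1s had 729, 934 and 236 Ly6c2 counts in controls and 5746, 940 and 4302 in RARα403 cells. The count of 5746 is from liver ILC1 RARa403 library 1, the library left out for Plcg1 above. Of 36 cell cycle genes 12 had an unadjusted p under 0.05 for the difference, where 4.41% of all genes did, each with an adjusted p of 1. The median difference was 1.04, with the NK effect the higher. Within NK cells the median log2 fold change of this list was 0.88 with 5 libraries and 0.15 without RARa403 2.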

How the data were processed

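Gene expression was measured by SMART-seq in 6 libraries of liver NK cells, 3 control and 3 RARα403, grouped by the genotype in their labels. Reads were processed with fastp 0.23.0, HISAT2 2.1.0 and featureCounts of Subread 1.6.5 on mm10, per the submitters' processing notes. Not given in the sources used here are the annotation release, strandedness and the handling of reads that match several places. The deposited table holds raw read counts for 46078 genes, of which 45229 were matched to a symbol by their identifier. The other 849 held 0.0544% of counts. Gene coordinates are from GENCODE (mm10) and promoters from RefSeq (mm10).

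Counts were filtered with filterByExpr (minimum count 10), scaled by TMM and tested with edgeR 4.0.16 (R 4.3.3) by the quasi-likelihood test with Benjamini-Hochberg adjustment at 0.05, in 6 libraries and in the 5 without RARa403 1. The difference between NK cells and liver ILC1s was tested as an interaction over 17 libraries. A standard error is the fold change divided by the root of its F statistic. Total counts of 5727907 to 9038767 set the floor of 3 counts at 0.332 to 0.524 CPM. The tests were tested on simulated data with 200 changed genes.

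The alternatives were DESeq2 1.42.0, limma 3.58.1 (voom with quality weights), RLE scaling, no filter, robust priors, a spread shared by all groups, a fold threshold, a replicate block, replicates 2 and 3 alone and each library left out. A bias-adjusted fit was added after seeing the data. The libraries compared and the 36 gene lists were chosen with earlier results of these data known, and a list's count is a description. Named genes were those called, up to 12 per direction, filled to 6 per direction by smallest p among genes whose groups do not overlap and whose higher group averages 3 log2 CPM or more, without predicted or unnamed gene models. A fixed set of receptor and NK genes, the 2 genes of smallest p of each list and the 3 of the interaction were added. Other genes were chosen after their values were seen: the remaining GIMAP genes, the list members named beside a count or a library, Xist and Gm13394. Some genes that meet these rules are not reported here.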

Additional observations from a re-analysis of the deposited data

How the results depend on the processing

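With edgeR's quasi-likelihood test and 6 libraries, 0 genes were called under each alternative except DESeq2, which called 15. With 5 libraries the count was 0 under most alternatives, 45 with DESeq2, 83 without a filter on low counts, 1 with a spread shared by all groups (Plcg1) and 2 with the bias-adjusted fit chosen after seeing the data (Emilin2 and Gm13394). It was 0 with each library left out in turn. For the difference from liver ILC1s DESeq2 called 24, and leaving out each library gave 0 to 1. With 6 libraries Nr4a3 (1.12 in all) reversed to −2.52 with voom, −1.05 with the replicate block, −2.20 with replicates 2 and 3 only and ran from −2.29 (without RARa403 1) to 1.68 with 1 library left out. Itm2a (0.61) reversed to −0.36 with the replicate block and ran from −0.068 (without RARa403 2) to 1.21, and Rrm1 (0.40) ran from −0.082 (without RARa403 2) to 0.89. The cause was not tested. The alternatives were followed for only a part of the named genes, and the counts here are of pairs of a gene and a setting. The other pairs kept their direction, 514 with the same call and 7 newly past the threshold with 6 libraries, and 463 and 47 with 5. Named genes outside that part also changed direction between the fits with 6 and 5 libraries. Among them were Rara (2.53 and −0.03), Syk (1.12 and −0.49) and Notch2 (2.99 and −0.94). Fits with the replicate number as a block called 0 genes in each comparison, with 88 (6 libraries), 507 (5 libraries) and 817 (difference) at an unadjusted p under 0.05. Same-numbered libraries correlated at 0.025, −0.0066 and 0.0249 in their deviations from the group means of all 6 libraries. RARa403 1 enters the RARα403 means, so these values cannot decide whether the numbers pair the samples. Column names begin with 1 for control 1 and RARa403 1 and with 2 for the other NK libraries, and the labels do not say what this marks. Without RARa403 1, control 1 is the only NK library whose name begins with 1. Depth limits genes near 3 counts a library, and the spread between so few libraries limits the rest.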
